A study of Mus musculus with 18 samples.

Results

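Mouse cones turn light into an electrical signal with a set of proteins that are largely separate from those of rods, and 10 genes of that set are described here across 18 RNA-seq libraries of sorted cones. The genes were taken from a list of symbols, chosen with earlier results of these data known: Gnat2, Gnb3 and Gngt2 for the G protein transducin, Pde6c and Pde6h for phosphodiesterase 6, Cnga3 and Cngb3 for the cyclic nucleotide-gated channel, and Arr3, Grk1 and Guca1a for shut-off and recovery. All 10 matched 1 gene identifier each among the 54532 in the count tables. Every library came from 1 retina of a wildtype mouse whose cones carried the nuclear label H2BGFP, a green fluorescent histone fusion expressed from an AAV8 vector with the cone promoter SynP136. In the Txnip groups the eye had also received AAV8-RedO-Txnip, in which the human red opsin promoter drives thioredoxin interacting protein, and this promoter is known to have low activity in some rods. The control groups received the label vector only. The albino strain BALB/c gave 6 control and 6 Txnip libraries at P21 (day 21 after birth), and the pigmented strain C57BL/6J gave 3 of each at P35 (day 35).

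In the cascade, light-activated cone opsin switches on transducin, whose alpha subunit then releases the phosphodiesterase from its inhibitory subunit. The phosphodiesterase breaks down cGMP, the cation channel that cGMP holds open closes, and the cone hyperpolarizes. Opsin kinase and cone arrestin end the signal of the opsin, and guanylate cyclase with its calcium-sensing activators restores cGMP. Loss of function in several of these genes causes achromatopsia or cone dystrophy in people. In the mouse, Grk1 and Guca1a also serve rods.

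The libraries held 647712 to 5172156 counted read pairs, and the lowest count of any of the 10 genes in any library was 191. The label check held in every library. Txnip itself was at 0 to 1.48 CPM in the 9 control libraries and at 821 to 1969 CPM in the 9 Txnip libraries. CPM is the count as a share of the library's total, scaled to 1000000, after TMM normalization, which corrects the totals for composition.

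A pair of C57BL/6J libraries stood apart, control replicate 1 and Txnip replicate 2. The rod marker list without Sag, Pde6g and Gngt1 (9 genes, all detected in every library) took 1.38% and 0.973% of their counts against 0.0787% to 0.229% in the other 16 libraries. Sag, Pde6g and Gngt1 were left out of that sum because they were at like levels in libraries with few other rod counts. With all 12 rod markers the pair took 2.57% and 1.76%, against 1.02% to 1.78% in the other 16 libraries. Txnip replicate 2 then lay inside that range, so its high rod share rests on the list of 9 genes. Markers of bipolar cells (10 genes) took 0.0466% and 0.0527% of the counts in the pair against 0.00618% to 0.0185% elsewhere, and markers of Muller glia (7 genes) 0.0944% and 0.0679% against 0.00589% to 0.0254%. All 10 cone cascade genes were lower in control replicate 1 than in each of the 4 remaining C57BL/6J libraries, and 8 of 10 were lower in Txnip replicate 2. Strain differences of the 10 genes are given with and without this pair. In bulk libraries, fewer cells of a type and less RNA per cell cannot be told apart.

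The promoters of 3 of the genes, picked by the strain comparison below, are shown first. With all libraries Arr3 and Grk1 were called higher in C57BL/6J cones and Guca1a was not, although Guca1a was called without the pair above. Promoter windows from RefSeq were used for 6 of the 10 genes, and those for Gnb3, Gngt2, Pde6c and Cngb3 were not analysed here. Each run gives the 250 bases before the annotated start, 5′ to 3′ on the strand of the gene, in GRCm38.p6. Capitals mark the motifs searched on both strands: TAATCC (the core recognized by the photoreceptor factor Crx and by Otx2), AGGTCA (a nuclear receptor core), TAATTA (a homeodomain core, the same on both strands) and TATAAA (the TATA box).
Arr3 (plus strand, chrX:100605247-100605496): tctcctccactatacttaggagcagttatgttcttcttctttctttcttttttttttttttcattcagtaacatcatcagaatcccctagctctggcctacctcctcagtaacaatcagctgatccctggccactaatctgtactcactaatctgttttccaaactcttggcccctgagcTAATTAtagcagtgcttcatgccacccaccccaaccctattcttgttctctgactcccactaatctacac
Grk1 (plus strand, chr8:13404831-13405080): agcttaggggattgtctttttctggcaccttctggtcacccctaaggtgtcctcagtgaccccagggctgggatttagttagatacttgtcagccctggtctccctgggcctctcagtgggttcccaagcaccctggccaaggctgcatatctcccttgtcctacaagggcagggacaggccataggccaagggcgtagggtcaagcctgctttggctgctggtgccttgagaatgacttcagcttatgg
Guca1a (minus strand, chr17:47400607-47400856): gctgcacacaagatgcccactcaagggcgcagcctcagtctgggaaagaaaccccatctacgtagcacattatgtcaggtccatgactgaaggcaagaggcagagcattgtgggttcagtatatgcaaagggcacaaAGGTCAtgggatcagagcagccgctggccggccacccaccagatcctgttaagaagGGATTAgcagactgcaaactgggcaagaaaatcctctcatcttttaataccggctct

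These letters differed among the 3 promoters. Guca1a held TAATCC on the opposite strand from base -57 and AGGTCA from base -113, counted from the start, Arr3 held TAATTA from base -70, and Grk1 held none of the 4. Gnat2 also had TAATCC, on the opposite strand from base -19, so 2 of the 6 genes with a window held it. Over all 32851 RefSeq windows of this length, 6.25% held TAATCC, 14.0% AGGTCA, 4.84% TAATTA and 12.4% TATAAA. The windows are those of the reference genome, which is C57BL/6J, and BALB/c sequence was not analysed here. Any part of these motifs in the strain differences was not tested.

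In BALB/c control cones the 10 genes spanned a wide range of levels, with the calcium sensor, cone arrestin and the alpha and beta subunits of transducin at the top and the channel and the kinase at the bottom. Levels between genes are given as CPM per kilobase of annotated exon. Guca1a, the calcium sensor that activates guanylate cyclase, was highest at 2781 ± 214 (SD, n = 6). Gnb3, the transducin beta subunit, followed at 2110 ± 120.3, Arr3, cone arrestin, at 1906 ± 371, and Gnat2, the transducin alpha subunit, at 1565 ± 165 (SD, n = 6 each). Gnb3, Arr3 and Gnat2 were neighbours whose libraries overlapped, whereas Guca1a was above Gnb3 in 6 of 6 libraries with no overlap.

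The middle and the bottom of the order were set by the phosphodiesterase and the channel. Pde6h, the inhibitory subunit, was at 516 ± 31.9 and Gngt2, the transducin gamma subunit, at 457 ± 45.3. Their ranges overlapped, although Pde6h was higher in 6 of 6 libraries. Pde6c, the catalytic subunit, lay apart from both neighbours at 131 ± 14.9. The channel subunits Cnga3 (66.4 ± 6.66) and Cngb3 (62.8 ± 7.35) and the opsin kinase Grk1 (62.4 ± 13.4) did not differ beyond their spread (SD, n = 6 each).

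In C57BL/6J control cones the order was partly different. Pde6c was at 824 ± 114 CPM per kilobase, above Gngt2 (677 ± 166) and Pde6h (645 ± 169.6) in 3 of 3 libraries, with ranges that overlapped between Pde6c and Gngt2 and between Gngt2 and Pde6h. Arr3 was highest at 3754 ± 811, then Guca1a at 3379 ± 766, Gnat2 at 2174 ± 482 and Gnb3 at 2151 ± 264 (SD, n = 3 each). Gnat2 and Gnb3 were not separated, since Gnat2 was higher in 1 of 3 libraries. Grk1 (99.6 ± 11.3), Cnga3 (75.3 ± 21.2) and Cngb3 (67.9 ± 22.0) were again the lowest. These orders depend on the length used for each gene. With the longest principal transcript of GENCODE in place of all annotated exons, Arr3 became the highest in BALB/c at 3302 ± 643, and Guca1a moved to the third place at 2781 ± 214 (SD, n = 6). The same 4 genes held the first 4 places in both strains with either length.

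**Figure D1:**
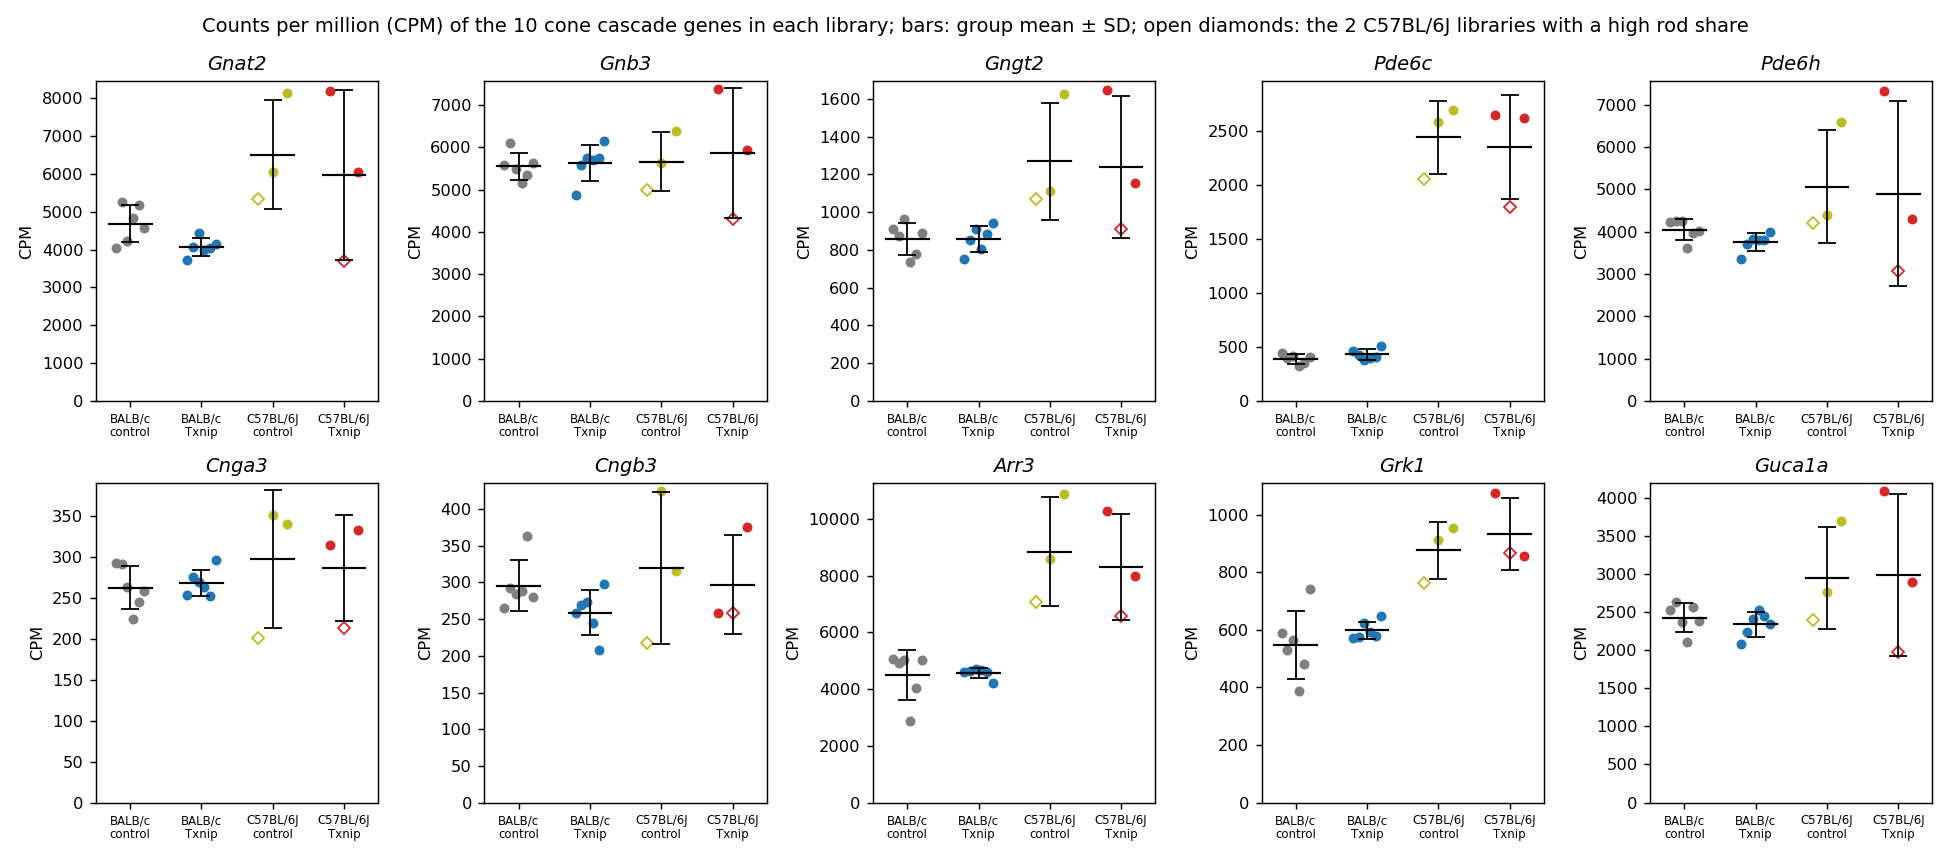
CPM of each of the 10 cone cascade genes (y axis from 0) in the 18 libraries, by group on the x axis, with group mean ± SD as bars and the pair of C57BL/6J libraries with a high rod share as open diamonds. Pde6c was at 320 to 511 CPM in the 12 BALB/c libraries and at 1797 to 2694 CPM in the 6 C57BL/6J libraries.

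The first comparison asked how the cascade differed between control cones of both strains, which also differ in age, so strain, age and any sequencing batch cannot be told apart. Pde6c, Arr3, Grk1 and Gngt2 were higher in C57BL/6J cones, at 6.29-, 1.97-, 1.6- and 1.48-fold the BALB/c level, and none of the 10 genes was called lower. The test was the quasi-likelihood F test of edgeR in a fit of all 4 groups, adjusted by Benjamini-Hochberg, with a threshold of 0.05. Across all 14751 genes tested, 17.5% were called and 8.03% were called higher in C57BL/6J, against 4 of the 10 cascade genes in each case. The median log2 fold change was 0.40 over the 10 genes and -0.00115 over all genes tested. With the pair of libraries with a high rod share left out, 7 of 10 were called, all higher, the additions being Gnat2, Cnga3 and Guca1a, against 2742 of the 15614 genes tested in that setting, 1028 of them higher. The log2 fold changes without the pair were 2.75 for Pde6c, 1.10 for Arr3, 0.75 for Grk1, 0.66 for Gngt2, 0.42 for Pde6h and 0.10 for Gnb3.

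Pde6c showed the largest difference of the 10. Its gene lies on chromosome 19 from 38132781 to 38183958 on the plus strand. In the 6 BALB/c control libraries it was at 442, 398, 413, 320, 354 and 410 CPM, and in the 3 C57BL/6J control libraries at 2062, 2586 and 2694 CPM. The lowest C57BL/6J control library was 4.67 times the highest BALB/c control library. The Txnip libraries were at 379 to 511 CPM in BALB/c and at 1797, 2620 and 2652 CPM in C57BL/6J, so all C57BL/6J libraries lay above all BALB/c libraries. Both strains were counted on the C57BL/6J reference, and the BALB/c sequence of Pde6c was not analysed here. The log2 fold change between control cones was 2.65 (standard error 0.14, 95% interval 2.36 to 2.95), with an adjusted p of 1.06e-11 from edgeR. By p it was 7th of all 14751 genes tested, and by fold it was 64th of the 1184 genes called higher in C57BL/6J. Leaving out each library in turn kept it between 2.58 and 2.75.

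Its partner Pde6h did not show a difference of this size. Pde6h (chromosome 6 from 136923832 to 136968865, plus strand) was at 4218, 4241, 4260, 3609, 3958 and 4011 CPM in BALB/c control cones and at 4194, 4397 and 6594 CPM in C57BL/6J control cones. The groups overlapped, and the log2 fold change was 0.32 (95% interval -0.06 to 0.71, adjusted p = 0.249 by edgeR). Without C57BL/6J control replicate 3, the library at 6594 CPM, it was 0.086. Part of the Pde6h exons, 136 of 7846 bases, is shared with Arhgdib on the opposite strand, a gene that was itself at 10.2 to 17.6 CPM in BALB/c control cones and at 159 to 344 CPM in C57BL/6J control cones, and the counting did not use strand.

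**Figure D2:**
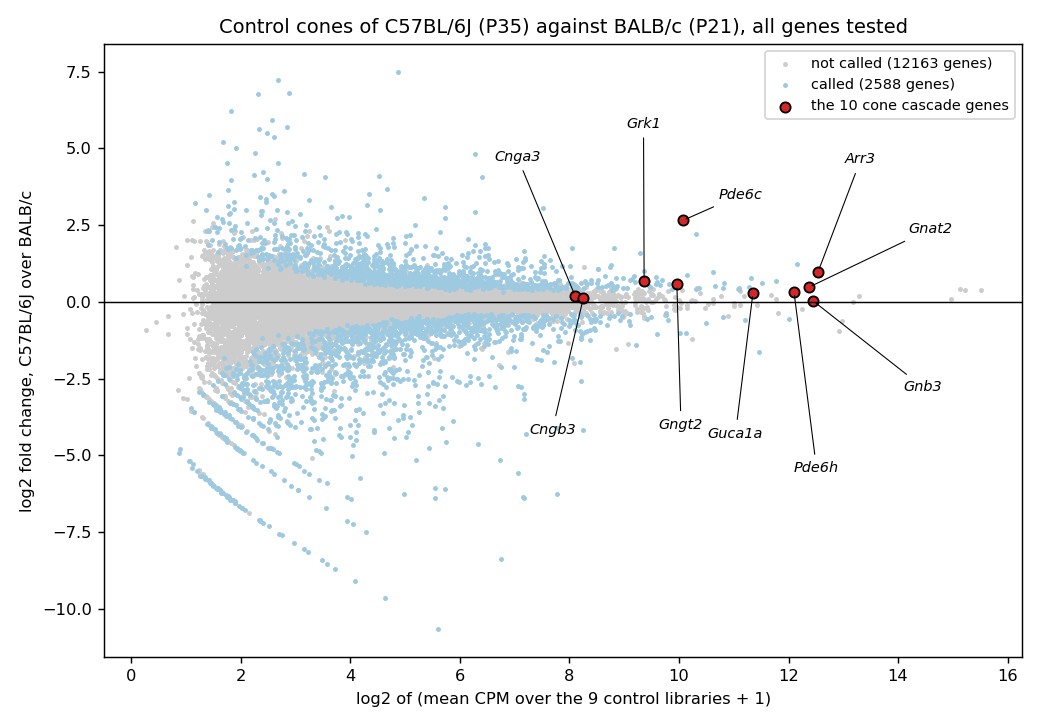
Log2 fold change between C57BL/6J and BALB/c control cones (y axis) against log2 of the mean CPM plus 1 over the 9 control libraries (x axis) for all 14751 genes tested, with called genes in blue and the 10 cone cascade genes in red. Pde6c lies at 2.65, Arr3 at 0.98, and the other 8 between 0.03 and 0.67.

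Among the genes that shut the signal off, cone arrestin and the opsin kinase were both higher in C57BL/6J. Arr3 (chromosome X from 100605497 to 100618493, plus strand) was at 5070, 4901, 5007, 2886, 4046 and 5016 CPM in BALB/c control cones and at 7077, 8579 and 10870 CPM in C57BL/6J control cones. No library of either strain overlapped the other, the Txnip libraries included. Its log2 fold change was 0.98 (standard error 0.17, 95% interval 0.63 to 1.32, adjusted p = 2.25e-04 by edgeR). BALB/c control replicate 4, at 2886 CPM, was the lowest, and it was also the lowest BALB/c control for Gnb3, Gngt2, Pde6c, Pde6h, Cnga3, Grk1 and Guca1a.

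Grk1 (chromosome 8 from 13405081 to 13421951, plus strand) was at 587, 529, 565, 387, 482 and 740.2 CPM in BALB/c control cones and at 763, 911 and 952 CPM in C57BL/6J control cones. The strains did not overlap, but the gap was narrow, with the lowest C57BL/6J library 1.03 times the highest BALB/c library. The log2 fold change was 0.67 (standard error 0.15, 95% interval 0.36 to 0.98, adjusted p = 0.00293 by edgeR). Rods use Grk1 as well. The C57BL/6J control library with a high rod share was the lowest of its group for it, at 763 CPM. The Txnip library with a high rod share was at 867 CPM, with the others of its group at 1076 and 855 CPM. The part of rods in the Grk1 difference was not tested.

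Guca1a (chromosome 17 from 47394558 to 47400584, minus strand) was at 2107 to 2628 CPM in BALB/c control cones (median 2451) and at 2397, 2760 and 3693 CPM in C57BL/6J control cones, and the groups overlapped. Its log2 fold change of 0.28 (95% interval -0.07 to 0.63) did not pass the test (adjusted p = 0.266 by edgeR). Without the pair of rod-rich libraries it was 0.39 with an adjusted p of 0.0409, and without C57BL/6J control replicate 3, the library at 3693 CPM, it was 0.0881 with an adjusted p of 0.817.

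The 3 transducin subunits were not alike between the strains. Gngt2 (chromosome 11 from 95837216 to 95845734, plus strand) was at 912, 873, 962, 734, 780.3 and 888 CPM in BALB/c control cones and at 1070, 1112 and 1628 CPM in C57BL/6J control cones, with no overlap. The log2 fold change was 0.57 (standard error 0.16, 95% interval 0.23 to 0.90), with an adjusted p of 0.0174 by edgeR. That call was lost without C57BL/6J control replicate 3, the library at 1628 CPM, where the log2 fold change was 0.35 and the adjusted p 0.218. Of the Gngt2 exons, 234 of 1877 bases (12.5%) are shared with Abi3 on the opposite strand. Abi3 was also higher in C57BL/6J (log2 fold change 0.82, adjusted p = 0.0121 by edgeR), at 51.9 to 108 CPM against 33.3 to 57.7 CPM. The part of these shared bases in the Gngt2 difference was not tested.

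Gnat2 (chromosome 3 from 108092789 to 108101432, plus strand) was at 4044, 5251, 4228, 4833, 5182 and 4581 CPM in BALB/c control cones and at 5349, 6057 and 8128 CPM in C57BL/6J control cones. The groups did not overlap, yet the log2 fold change of 0.47 (95% interval 0.11 to 0.84) missed the threshold with an adjusted p of 0.064 by edgeR. Without the pair of rod-rich libraries it passed, at 0.58 with an adjusted p of 0.00218, and without C57BL/6J control replicate 3, the library at 8128 CPM, it was 0.285 with an adjusted p of 0.374. It also passed with the 9 control libraries only (adjusted p = 0.0414 by edgeR) and with all genes of at least 1 count (0.0214). Leaving out only C57BL/6J control replicate 1, Txnip replicate 1 or Txnip replicate 2 gave adjusted p values of 0.037, 0.02 and 0.00923 by edgeR. Gnb3 (chromosome 6 from 124834240 to 124840275, minus strand) was at 5164 to 6099 CPM in BALB/c control cones (median 5542) and at 4988, 5620 and 6377 CPM in C57BL/6J control cones, so the groups lay over each other. Its log2 fold change was 0.03 (95% interval -0.26 to 0.32, adjusted p = 0.918 by edgeR), which leaves out a difference of the size seen for Pde6c or Arr3. In all, 5 of the 10 genes (Pde6c, Arr3, Grk1, Gngt2 and Gnat2) had control libraries of the strains that did not overlap, all higher in C57BL/6J, and 8.98% of all genes tested did so in that direction.

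The channel subunits were close between the strains. Cnga3, the subunit that can form a channel by itself (chromosome 1 from 37214434 to 37263384, plus strand), was at 225 to 292 CPM in BALB/c control cones (median 261) and at 201, 352 and 341 CPM in C57BL/6J control cones. Cngb3, the modulatory subunit (chromosome 4 from 19280850 to 19510623, plus strand), was at 266 to 364 CPM (median 287) and at 218, 425 and 316 CPM. Both groups overlapped for each gene. The log2 fold changes were 0.18 for Cnga3 (95% interval -0.15 to 0.52, adjusted p = 0.478) and 0.11 for Cngb3 (95% interval -0.25 to 0.47, adjusted p = 0.719), both by edgeR. In each case the lowest C57BL/6J library was the control with a high rod share, and without the pair of rod-rich libraries the values were 0.38 (adjusted p = 0.0334) and 0.31 (adjusted p = 0.202). Without C57BL/6J control replicate 2, the highest of its group for both, they were 0.0206 and -0.174.

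**Figure D3:**
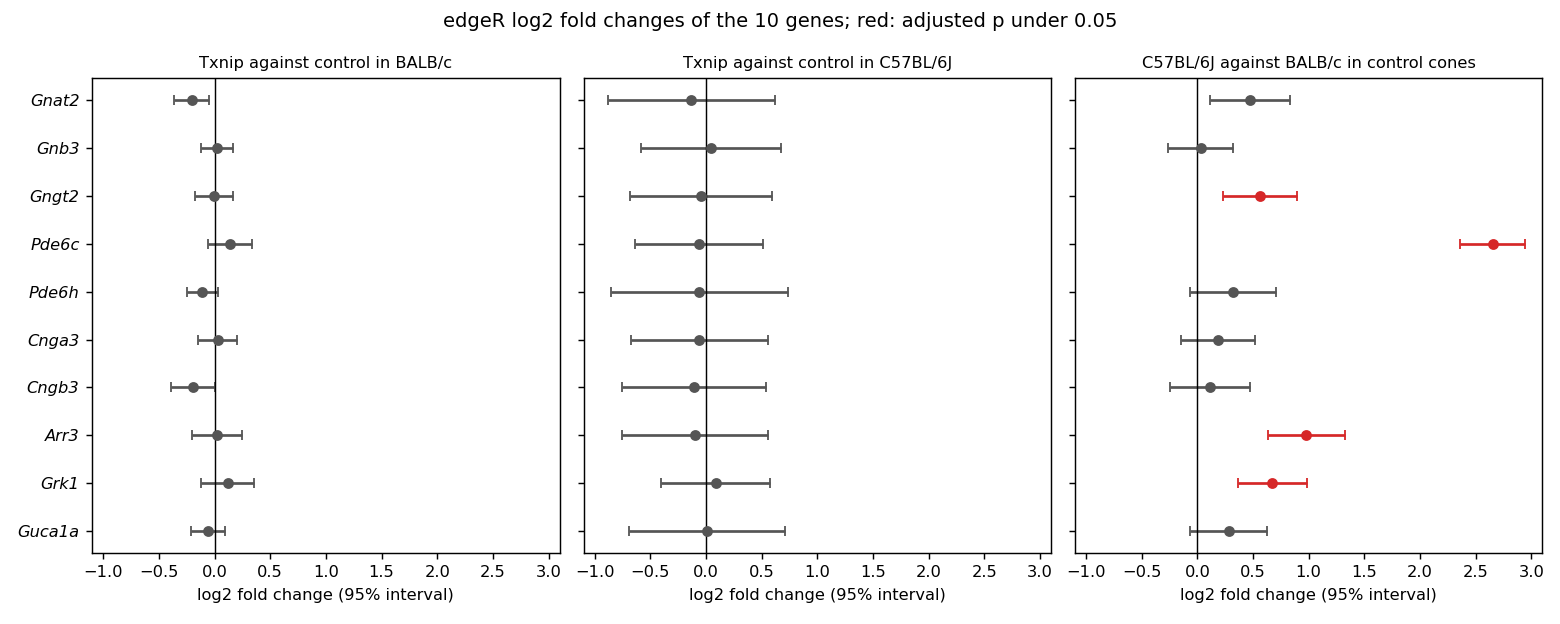
Log2 fold changes from edgeR (x axis, points) with 95% intervals (bars) of the 10 cone cascade genes (y axis) for Txnip against control in BALB/c, Txnip against control in C57BL/6J, and C57BL/6J against BALB/c control cones, red where the adjusted p was under 0.05. Only the strain comparison holds red points, for Pde6c, Arr3, Grk1 and Gngt2.

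The second comparison asked whether Txnip changed the cascade in BALB/c cones, and no gene of the 10 passed the test. By edgeR 0 of 10 were called, against 0.0166% of the 12017 genes tested, which is 2 genes, Txnip and Gm15441, a transcript on the opposite strand at the Txnip locus. Before adjustment, p was under 0.05 by edgeR for 1 of the 10, Gnat2, and for 1372 of the 12017 genes tested. DESeq2 also called 0 of the 10, with an unadjusted p under 0.05 for 3 (Gnat2, Cngb3 and Pde6h). Over all genes DESeq2 called 76 of the 9983 that had an adjusted p, and 2119 had an unadjusted p under 0.05, those without an adjusted p included. The log2 fold changes ran from -0.21 to 0.14 with a median of 0.0074, and all 95% intervals together lay between -0.40 and 0.36. The libraries of both groups overlapped for all 10 genes, where 0.699% of all genes tested did not overlap.

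Gnat2 was the gene with the largest difference, at 3728, 4081, 4432, 3994, 4036 and 4144 CPM in BALB/c Txnip cones. These values lay in the lower part of the control range of 4044 to 5251 CPM, with 3 of the 6 below it. The log2 fold change was -0.21 (standard error 0.074, 95% interval -0.36 to -0.05), and the adjusted p was 0.277 by edgeR. Cngb3 was at 259, 269, 274, 245, 208 and 298 CPM with Txnip against 266, 292, 284, 289, 364 and 280 CPM in controls, with a log2 fold change of -0.20 (95% interval -0.40 to 0.00190, adjusted p = 0.437 by edgeR). BALB/c control replicate 5 held the high value of 364 CPM, and without 1 library at a time the log2 fold change ran from -0.24 to -0.12.

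Pde6c was at 467, 423, 379, 396, 407 and 511 CPM with Txnip, around and partly above the controls, with a log2 fold change of 0.14 (95% interval -0.06 to 0.34, adjusted p = 0.592 by edgeR). Pde6h was at 3361 to 4001 CPM with Txnip, a log2 fold change of -0.11 (95% interval -0.25 to 0.03, adjusted p = 0.542 by edgeR). Grk1 was at 572 to 646 CPM with Txnip, a log2 fold change of 0.12 (95% interval -0.12 to 0.36). The remaining genes were nearer to 0: Guca1a at -0.06 (95% interval -0.21 to 0.09), Cnga3 at 0.03 (-0.14 to 0.20), Arr3 at 0.02 (-0.20 to 0.25), Gnb3 at 0.02 (-0.12 to 0.16) and Gngt2 at -0.0044 (-0.18 to 0.17). As folds, the intervals of these 5 genes together ran from 0.866 to 1.19.

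In C57BL/6J cones Txnip gave the same count. By edgeR 0 of 10 genes were called, against 0.0154% of the 12974 genes tested (2 genes, again Txnip and Gm15441). DESeq2 called 0 of the 10, and 0 had an unadjusted p under 0.05. The log2 fold changes ran from -0.13 to 0.09 with a median of -0.06, but the intervals were wider than in BALB/c, from -0.88 at the lowest to 0.74 at the highest. Libraries of both groups overlapped for all 10 genes, where 4.42% of all genes tested did not overlap.

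The C57BL/6J libraries of a group were far apart. Gnat2 was at 8196, 3698 and 6042 CPM in the Txnip libraries and at 5349, 6057 and 8128 CPM in the controls, with the lowest value of each group in the library with a high rod share. Pde6h was at 7330, 3071 and 4294 CPM with Txnip against 4194, 4397 and 6594 CPM in controls. Cnga3 was at 315, 213 and 333 CPM against 201, 352 and 341 CPM. Over the 10 genes the coefficient of variation between libraries was 11.3% to 32.4% in C57BL/6J controls and 13.3% to 44.8% with Txnip, against 5.70% to 21.5% and 3.80% to 11.7% in BALB/c. Leaving out the pair changed no call, with 0 of 10 called.

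The effect of Txnip was then compared between the strains in a fit of all 4 groups. The interaction was called for 0 of the 10 genes and for 0% of the 14751 genes tested by edgeR, with 0 of the 10 at an unadjusted p under 0.05 and 0 called by DESeq2. The differences ran from -0.20 to 0.09 on the log2 scale, with 95% intervals from -0.63 at the lowest to 0.61 at the highest. Among the other phototransduction genes listed further on, the largest differences were those of Gucy2f (1.86), Pde6d (0.65) and Rgs9 (0.11), with adjusted p values of at least 0.961 by edgeR.

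The balance of partner genes was measured inside each library, as the log2 ratio of counts per exonic kilobase, since such a ratio needs no scaling between libraries. For 5 pairs and 3 comparisons, 15 differences were tested with two-sided exact permutation tests and Benjamini-Hochberg adjustment, and none passed the threshold. The smallest p that the design allows is 0.00216 for 6 against 6 libraries, 0.0238 for 3 against 6 and 0.1 for 3 against 3. After adjustment over the 15, the smallest value was 0.0714.

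The ratio of Pde6c to its inhibitory partner Pde6h was -1.98 ± 0.099 in BALB/c control cones (SD, n = 6) and 0.37 ± 0.26 in C57BL/6J control cones (SD, n = 3). The difference was 2.36, a 5.12-fold change of the ratio, and the libraries did not overlap (exact permutation p = 0.0238, adjusted p = 0.0714). The catalytic subunit was below the inhibitory subunit in all BALB/c control libraries and above it in all C57BL/6J control libraries, with lengths of all annotated exons. With the longest principal transcript as the length, Pde6c was above Pde6h in 2 of the 3 C57BL/6J control libraries. With Txnip in BALB/c the ratio was -1.73 ± 0.19, higher by 0.25 than in controls (exact permutation p = 0.013, adjusted p = 0.0714).

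The ratio of Gnat2 to Gnb3, the alpha and beta subunits of transducin, was -0.44 ± 0.16 in BALB/c controls (SD, n = 6) and -0.0002125 ± 0.14 in C57BL/6J controls (SD, n = 3). These libraries did not overlap, with a difference of 0.44 (exact permutation p = 0.0238, adjusted p = 0.0714). With Txnip the ratio was -0.65 ± 0.077 in BALB/c (SD, n = 6), 0.22 below the controls, a change whose exact permutation p was 0.0173 and adjusted p 0.0714. In C57BL/6J it was -0.20 ± 0.19 with Txnip (SD, n = 3), 0.20 below the controls, where the exact permutation p was 0.3. The Arr3 to Grk1 ratio was 4.93 ± 0.17 in BALB/c controls and 5.22 ± 0.17 in C57BL/6J controls, with libraries that did not overlap but met at 5.11, an exact permutation p of 0.0238 and an adjusted p of 0.0714.

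The remaining pairs showed smaller differences against their spread. The Gnat2 to Gngt2 ratio was 1.77 ± 0.27 in BALB/c controls and 1.69 ± 0.072 in C57BL/6J controls (exact permutation p = 0.595, adjusted p = 0.744). The Cnga3 to Cngb3 ratio was 0.0804 ± 0.25 and 0.16 ± 0.19 in the same groups (exact permutation p = 0.714, adjusted p = 0.824). With Txnip in BALB/c the Cnga3 to Cngb3 ratio was 0.31 ± 0.12 (SD, n = 6), higher by 0.23 than in controls, with overlapping libraries (exact permutation p = 0.0801, adjusted p = 0.2). Without the pair of rod-rich libraries the strain differences of the ratios were 2.36 for Pde6c to Pde6h, 0.478 for Gnat2 to Gnb3 and 0.342 for Arr3 to Grk1.

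**Figure D4:**
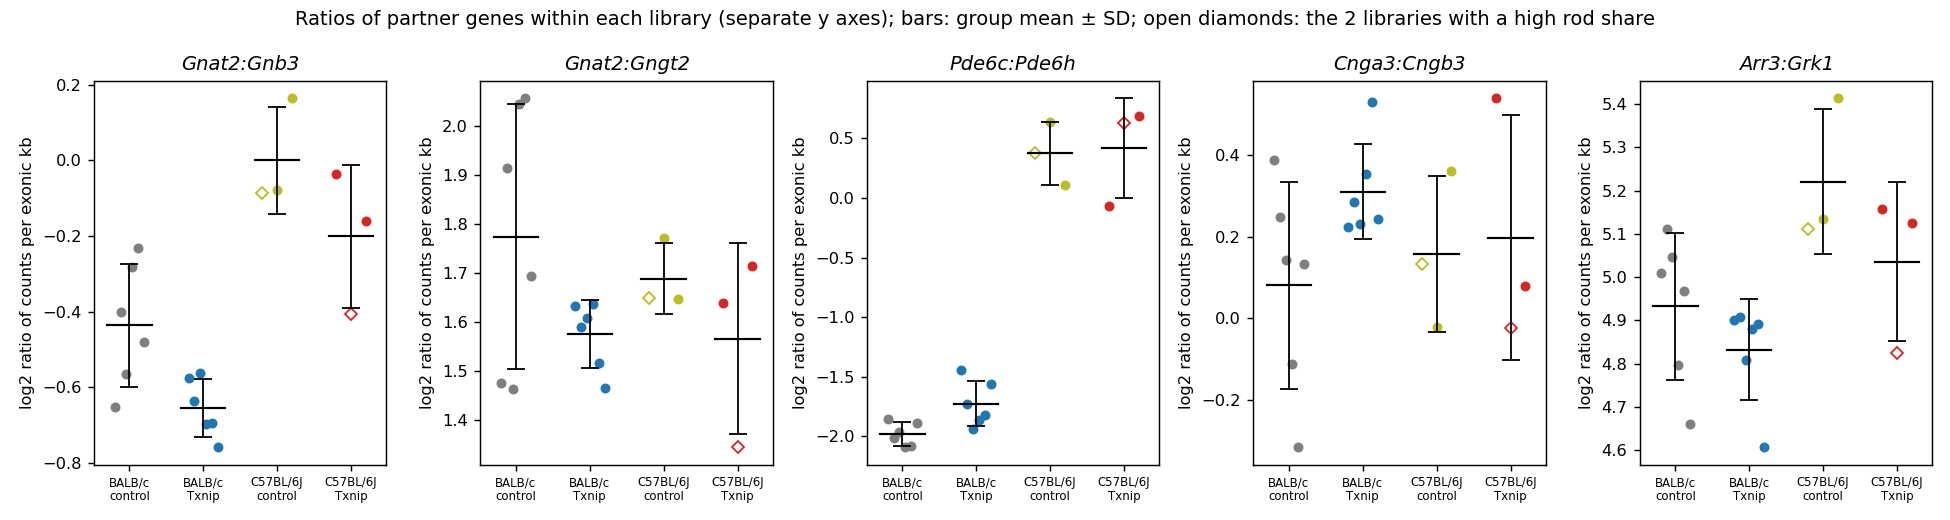
Log2 ratio of counts per exonic kilobase (y axes, each with its own range) for 5 pairs of cone cascade genes in each library, by group on the x axis, with group mean ± SD as bars and the pair of libraries with a high rod share as open diamonds. The Pde6c to Pde6h ratio lies below -1.4 in all 12 BALB/c libraries and above -0.1 in all 6 C57BL/6J libraries.

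Libraries of a group also varied in the level of the 10 genes. Over the 12 BALB/c libraries, after subtraction of the group means of log2 CPM, the 45 pairs of genes had a median Pearson r of 0.446, and 33 of 45 were above 0. The highest was 0.882 for Gngt2 with Pde6h and the lowest -0.531 for Gnat2 with Pde6c. Against the mean profile of the other 9 genes, Pde6h (r = 0.884) and Cnga3 (r = 0.828) were the most alike, while Cngb3 (r = -0.0076) and Gnat2 (r = -0.0478) did not follow it. Over the 6 C57BL/6J libraries the median r of the 45 pairs was 0.82 and all 45 were above 0, with the pair of rod-rich libraries low for most genes. Genes in general followed the mean profile of the 10 more closely in C57BL/6J, where the median r over 6009 genes at or above the median level was 0.413, than in BALB/c, where it was 0.0228. Points of these correlations share library composition and depth, so they are descriptions only.

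The genes whose levels most resembled the profile of the 10 over the 12 BALB/c libraries, among 6009 genes at or above the median level, were Mapk1ip1 (r = 0.943), Rpl19 (r = 0.900), Rabgef1 (r = 0.889), Radil (r = 0.888) and Rbm4b (r = 0.885). In the 6 C57BL/6J libraries the same genes had r values of 0.732, 0.58, -0.509, -0.672 and -0.449, so 3 of the 5 had the opposite sign there.

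Other genes of phototransduction were compared from a list of 16, which holds the cone opsins, the guanylate cyclases and their activators, the GTPase-accelerating complex, the exchangers and the chaperones. Without the pair of rod-rich libraries 7 of 16 were called in the strain comparison, against 2742 of the 15614 genes tested, 1028 of them higher. Of the 7, Aipl1, a chaperone of phosphodiesterase 6, was not called with all libraries. With all libraries the other 6 were called, all higher in C57BL/6J. Of all genes tested, 17.5% were called there and 8.03% were called higher. These 6 were Opn1mw, the medium-wavelength cone opsin (log2 fold change 1.22, adjusted p = 2.15e-06 by edgeR), Guca1b, the second cyclase activator (1.13), Slc24a2, the cone sodium-calcium-potassium exchanger (1.04), Pdc, phosducin (0.89), Unc119, a carrier of acylated transducin (0.77), and Rgs9bp, the anchor of the RGS9 complex (0.59). Opn1mw was at 2903 to 3344 CPM in BALB/c control cones and at 5569, 7995 and 8516 CPM in C57BL/6J control cones. Opn1sw, the short-wavelength opsin, was at 24600 to 37040 CPM and at 27380, 22590 and 49830 CPM, with a log2 fold change of 0.10 (95% interval -0.42 to 0.61, adjusted p = 0.838 by edgeR).

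Under Txnip, edgeR called none of the other phototransduction genes, with 0 of 15 tested genes in BALB/c and 0 of 16 tested genes in the other strain. In BALB/c 2 had an unadjusted p under 0.05 and DESeq2 called 1, Pde6d, a carrier of prenylated proteins. Pde6d was at 241, 284, 218, 134, 197 and 231 CPM with Txnip and at 274, 341, 277, 335, 370.0 and 303 CPM in controls, so the groups overlapped in 1 Txnip library. Its log2 fold change was -0.54 (95% interval -0.81 to -0.26, adjusted p = 0.112 by edgeR). Slc24a1, the rod exchanger, had 0.40 (adjusted p = 0.423) and Opn1sw -0.19 (adjusted p = 0.437), both by edgeR in BALB/c. In C57BL/6J the furthest from 0 were Gucy2f (0.82), Slc24a1 (0.40) and Pdc (-0.24), with adjusted p values of 1 by edgeR, and Gucy2f was at 40.4 CPM in the rod-rich Txnip library against 2.71 and 3.23 CPM in the others of its group. Gucy2f did not pass the count filter in the edgeR fit of BALB/c alone, where it had 2 to 32 counts in a library, so its difference between strains rests on few counts.

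The rod counterparts of the cascade were a list of 9 genes. Gnat1, rod transducin alpha, was at 313 to 459 CPM in BALB/c control cones and at 2616, 262 and 482 CPM in C57BL/6J control cones. In the strain comparison edgeR called 4 of 9 higher in C57BL/6J (Gnat1, Pde6b, Cnga1 and Cngb1), against 8.03% of all genes tested. DESeq2 called 1 of 9 (Cnga1), against 2796 of the 19117 genes that had an adjusted p, 1160 of them higher. By edgeR none of these 4 was called without the pair of rod-rich libraries, where Gnat1 had a log2 fold change of -0.0070 and Pde6a, the rod phosphodiesterase alpha subunit, was called lower at -1.12 (adjusted p = 0.011 by edgeR). Without the pair the log2 fold change of Pde6c was 2.75. Pde6c was at 2062 and 1797 CPM in the pair, below the other C57BL/6J libraries at 2586 to 2694 CPM. The part of rods in the Pde6c difference was not tested. Sag, rod arrestin, was at 7651 to 10220 CPM in BALB/c control cones and at 7831, 9087 and 10570 CPM in C57BL/6J control cones. Under Txnip 0 of 9 rod counterparts were called in either strain by edgeR or DESeq2, and before adjustment p was under 0.05 for 1 gene in BALB/c (Gnb1, log2 fold change 0.27, adjusted p = 0.325 by edgeR) and for 0 in C57BL/6J.

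Of the other cell types, only ganglion cells had a marker share that did not overlap between the strains. Ganglion cell markers (6 genes) took 0.0381% to 0.113% of the counts in the 12 BALB/c libraries and 0.00232% to 0.0117% in the 6 C57BL/6J libraries, and amacrine markers (8 genes) 0.0301% to 0.0524% and 0.0115% to 0.0381%. Within BALB/c the amacrine share was 0.0301% to 0.0382% in controls and 0.0390% to 0.0524% with Txnip. Their part in the higher levels of Pde6c, Arr3, Grk1 and Gngt2 in C57BL/6J was not tested. Markers of retinal pigment epithelium, endothelium, microglia and blood each took at most 0.00300% of the counts of any library. The 10 genes together took 2.41% ± 0.14 of the counts in BALB/c controls (SD, n = 6), 2.29% ± 0.085 with Txnip (SD, n = 6), 3.35% ± 0.76 in C57BL/6J controls and 3.08% ± 1.09 with Txnip (SD, n = 3 each).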

How the data were processed

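Cones were sorted by their H2BGFP label, and Smart-Seq2 libraries were made from 1 retina each. With featureCounts 1.6.2, the authors assigned read pairs to genes on exons of the Ensembl 94 annotation of GRCm38, without strand, and deposited these counts unnormalized. A pair on several genes counted for each. STAR and DESeq2 are named in the submitters' processing notes, without a version. Both strains were counted on the C57BL/6J reference. The authors' own comparison tables (fold changes and p-values) were not used.

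Counts were filtered by filterByExpr and TMM-normalized, then fitted in R 4.3.3 with edgeR 4.0.16 (limma 3.58.1; DESeq2 1.42.0 as an alternative). BALB/c and C57BL/6J were each fitted alone for Txnip, and all 4 groups together for strain and interaction. Likeness used log2(CPM + 1). Ratios were tested with scipy 1.17.1, and fits were tested on simulated data. No source says which retinas shared a mouse, so p-values measure the spread between retinas. The smallest chi-square between libraries of a group was 1.83 per degree of freedom, so none was a copy. Same-numbered control and Txnip libraries did not deviate together (r = -0.0992 to 0.104).

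The members and lists were chosen with earlier results of these data known. Named genes were the 10 members, their rod counterparts, other phototransduction genes called (or the 3 largest changes), the 5 genes most like the members, genes sharing their exons, and Txnip.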

Additional observations from a re-analysis of the deposited data

Results flagged for a closer look

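In 30 groups of 6 libraries checked for a library far from the rest (10 genes and 5 ratios in the BALB/c groups), 3 stood apart, where chance alone gives about 1 in 20. Cngb3 was at 364 CPM in BALB/c control replicate 5, and the other 5 controls were at 266 to 292 CPM. Arr3 was at 4223 CPM in BALB/c Txnip replicate 6, and the other 5 were at 4584 to 4692 CPM. In the same library the log2 ratio of Arr3 to Grk1 was 4.61, and this library was the shallowest of the 18, at 647712 counted pairs.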

How the results depend on the processing

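Of the 10 genes, 0 were called for Txnip in either strain, and 0 for the difference between strains, under all alternatives run. In the strain comparison 3 to 7 were called, and 7 without both rod-rich libraries. Over all genes, counts moved by more than 1.5 times. The 2 called for Txnip in BALB/c became 1400 with all genes of at least 1 count, 0 with at least 10 counts in every library, 76 by DESeq2, and 182 with the rod share without Sag, Pde6g and Gngt1 as a covariate, an alternative chosen after seeing the data. The 2 in C57BL/6J became 5 and 0 under the same count filters. The 2588 between strains became 1507 with at least 10 counts. The 0 for the difference between strains became 186 with all genes and 2 without both rod-rich libraries. With each library left out in turn, these 4 counts ran from 2 to 258 (BALB/c Txnip replicate 1 gave 258, BALB/c control replicate 1 gave 23 and BALB/c Txnip replicate 2 gave 6), 2 to 2, 1605 to 2930 (1605 without C57BL/6J control replicate 3) and 0 to 1 (1 without C57BL/6J control replicate 1). The replicate block gave 3, 2 and 0 calls in BALB/c, C57BL/6J and the difference, and called 0 of the 10 genes. Labels pair the libraries only by number, and 1 of 6 BALB/c and 0 of 3 C57BL/6J controls correlated best with its own number. Signs turned only for uncalled values. In BALB/c, Gngt2 was 0.00293 with DESeq2 size factors, 0.00576 with the rod share and 0.0204 with the reduced rod share, where Guca1a was 0.00969. In C57BL/6J, Guca1a was -0.0138 with all genes, -0.0292 with the replicate block and -0.0128 with the reduced rod share. Without both rod-rich libraries Gngt2 was 0.0161, Pde6h 0.0625 and the Pde6c to Pde6h ratio -0.061. Between strains, Gnb3 was -0.00632 with at least 10 counts. Leaving out 1 library, log2 fold changes in BALB/c ran from -0.0717 to 0.0592 (Arr3), -0.00731 to 0.0591 (Cnga3), -0.0123 to 0.0546 (Gnb3), -0.0407 to 0.0296 (Gngt2), 0.0425 to 0.226 (Grk1), -0.0893 to -0.0271 (Guca1a) and 0.0858 to 0.176 (Pde6c). In C57BL/6J they ran from -0.264 to 0.0631 (Arr3), -0.272 to 0.0893 (Cnga3), -0.345 to 0.157 (Cngb3), -0.405 to 0.0965 (Gnat2), -0.131 to 0.2 (Gnb3), -0.282 to 0.163 (Gngt2), -0.01 to 0.138 (Grk1), -0.263 to 0.211 (Guca1a), -0.174 to 0.075 (Pde6c) and -0.443 to 0.166 (Pde6h). Between strains they ran from -0.174 to 0.308 (Cngb3), -0.0648 to 0.0971 (Gnb3), 0.086 to 0.426 (Pde6h), 0.0881 to 0.396 (Guca1a), 0.0206 to 0.385 (Cnga3), 0.285 to 0.584 (Gnat2) and 0.347 to 0.66 (Gngt2). The Cnga3 to Cngb3 ratio ran from 0.151 (without BALB/c control replicate 5) to 0.292 in BALB/c, from -0.131 to 0.151 in C57BL/6J and from -0.0241 to 0.167 between strains, and in C57BL/6J the Pde6c to Pde6h ratio from -0.0928 to 0.284 and the Gnat2 to Gnb3 ratio from -0.283 to -0.0976. The causes were not tested. Groups of 3, and of 2 after an exclusion, limit C57BL/6J.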
